A study of Mus musculus with 12 samples.

Results

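Ethanol is removed by oxidation, first to acetaldehyde and then to acetate, and the 10 genes described here encode enzymes of these steps and of related aldehyde reactions. They are the alcohol dehydrogenases Adh1, Adh5 and Adh7, the cytochrome P450 Cyp2e1, catalase (Cat), and the aldehyde dehydrogenases Aldh2, Aldh1a1, Aldh1b1, Aldh3a2 and Aldh9a1. The genes were selected by symbol, and all 10 were found among the 33024 gene symbols of the count table. RNA was sequenced from the cortex of 12 C57BL/6 mice of the abstinence arm (Arm #2), 7 Control and 5 EtOH. From 30 days of age, EtOH mice chose between water and 20% (v/v) ethanol during the dark phase (the 2BC-DID model of binge-like drinking), in 35 sessions of 12 h each, whereas Control mice, labelled Vehicle, had water in both bottles. Mice of both groups then spent 14 days without ethanol, were given the behavioural tests, and were perfused with saline under Avertin anaesthesia before the cortex was taken. The comparison is therefore one between mice after abstinence, and the sex of the mice and the amount each one drank were not used here.

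In the liver, where most ethanol is oxidised, cytosolic alcohol dehydrogenases pass its electrons to NAD+, and the mitochondrial enzyme ALDH2 takes the acetaldehyde on to acetate. In the brain, class I alcohol dehydrogenase is scarce, and catalase, which uses hydrogen peroxide in peroxisomes, and CYP2E1, which uses NADPH and oxygen at the endoplasmic reticulum, are held to carry much of the local oxidation. Of the other aldehyde dehydrogenases of the set, ALDH1B1 also accepts acetaldehyde, and the rest act mainly on retinal, fatty and amine-derived aldehydes. ADH5 acts on the glutathione adduct of formaldehyde, the aldehyde that also arises in 1-carbon metabolism.

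The libraries held between 31768079 and 42183031 counts, and Control 5 and EtOH 1 were the deepest. At these depths 3 counts, taken as the floor for detection, were worth at least 0.0695 and at most 0.0962 CPM, the unit used below for counts scaled by normalised library size, and 16059 genes passed the filter on low counts. Low counts were mostly even numbers, 70.9% to 75.3% of the counts from 1 to 20 in each mouse, against 49.8% to 51.7% of the counts of 1000 and over, so that a count of 2 may rest on a single fragment, which was not tested. Markers of cortical excitatory neurons were present in every mouse and summed to between 2258 and 2759 CPM in Control and between 2191 and 2763 CPM in EtOH mice, a sum led by Slc17a7. Of these 6 markers 1 was called higher, and 4 passed an adjusted p under 0.05 alone, in both directions. The groups also differed in markers of neighbouring regions. The 10 striatal neuron markers summed to between 989 and 2370 CPM in Control but between 234 and 302 CPM in EtOH mice, with 10 of 10 called lower. The 10 hippocampal markers summed to between 265 and 380 CPM in Control and between 463 and 525 CPM in EtOH mice, with 7 of 10 called higher. Choroid plexus markers stood at 118, 980 and 270 CPM in EtOH 1, EtOH 3 and EtOH 4, against 6.09 to 16.9 CPM in Control and 19.3 and 11.2 CPM in EtOH 2 and EtOH 5.

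Of the 10 enzymes, only Cyp2e1 was called different, and it was lower in EtOH mice. To be called, a gene needed both an adjusted p under 0.05 in edgeR's quasi-likelihood test of 5 EtOH against 7 Control mice and a log2 fold change of more than 0.5 in either direction. Adh7 had too few counts to be tested, so that 1 of 9 members tested was called, 0 higher and 1 lower, where 8.29% of all genes tested were called, 4.2% higher and 4.09% lower. At an unadjusted p under 0.05 also 0 members were higher in edgeR, and DESeq2 and limma voom called 0 higher and 1 lower. At an adjusted p under 0.05 alone the count among members was also 1 of 9, against 23.7% of all genes. The values of the groups were fully apart for 0 of the 10 members, against 9.81% of all genes tested. Of the 9 fitted differences 5 were negative and 4 positive, with a median log2 fold change of -0.08 for the members and 7.21e-05 for all genes, and a median size of 0.10 for the members and 0.15 for all genes. In bulk tissue, fewer cells of a type and less RNA per cell cannot be told apart, which applies to each value below.

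**Figure D1:**
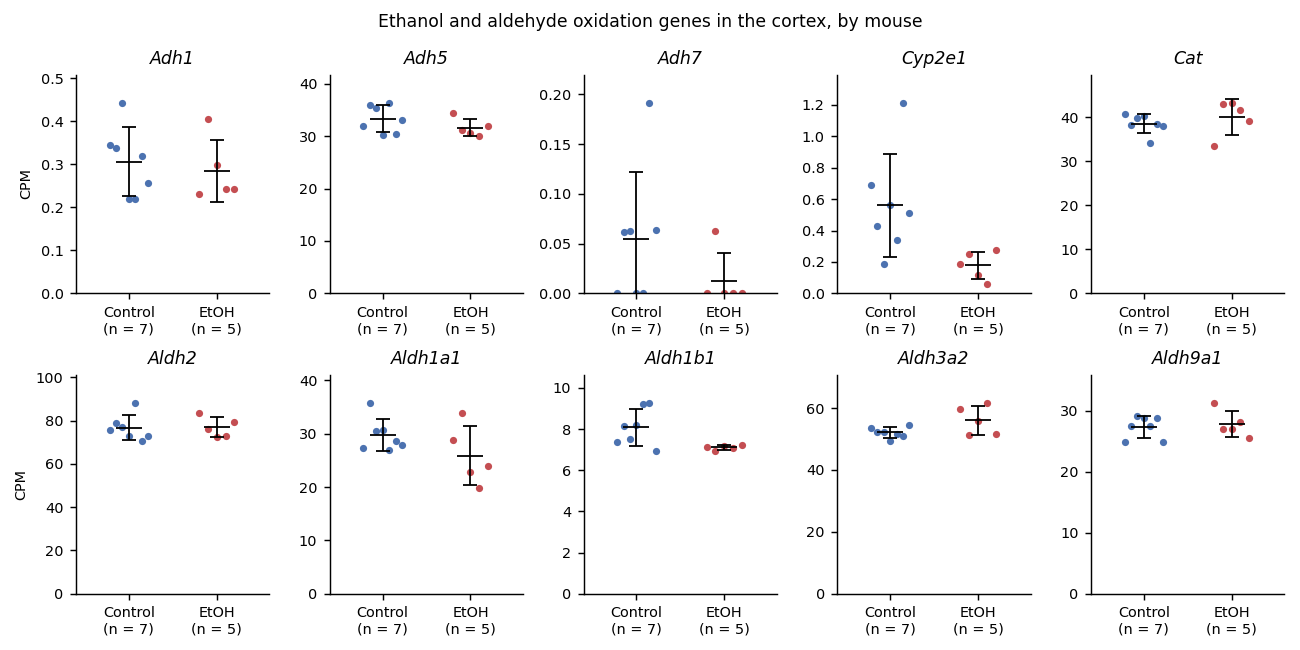
Normalised level (CPM) of each of the 10 genes in each mouse, Control (n = 7, blue) and EtOH (n = 5, red), with horizontal lines for the mean and bars for 1 SD on a separate axis for each gene starting at 0. The EtOH mice lie at the low end for Cyp2e1 (0.0607 to 0.274 CPM) and overlap Control mice for every gene shown.

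The members covered a wide span of levels. Set side by side per length (CPM per kilobase of annotated exon), Aldh2 had the highest level in Control mice, 12.6 ± 0.948 (SD, n = 7), followed by Cat with 10.5 ± 0.605 and Aldh3a2 with 7.70 ± 0.248. The ranges over mice of these 3 did not overlap with those of their neighbours in the order. Aldh9a1 (5.43 ± 0.358) and Adh5 (4.80 ± 0.367) came next with overlapping ranges, and Aldh1b1 (3.33 ± 0.369) and Aldh1a1 (2.77 ± 0.280) followed, again with overlapping ranges. The last 3 were far lower, with Cyp2e1 at 0.199 ± 0.116, Adh1 at 0.0926 ± 0.0243 and Adh7 at 0.0118 ± 0.0149 CPM per kilobase, and the ranges of Cyp2e1 and Adh1 overlapped. In EtOH mice the order was the same except that Adh1 (0.0861 ± 0.0219, n = 5) came before Cyp2e1 (0.0629 ± 0.0314), with overlapping ranges. When the longest transcript was taken as the length, 6 of 10 genes kept their place, and Aldh9a1 changed places with Adh5 and Aldh1b1 with Aldh1a1.

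Read as shares of the summed level per length of the 10 genes, the acetaldehyde oxidiser Aldh2 made up a median of 26.3% in Control and 26.2% in EtOH mice, and Cat 22.5% and 24.1%. The genes most closely tied to ethanol oxidation in the liver were a small part. Adh1 made up a median of 0.207% in Control and 0.159% in EtOH mice, and Cyp2e1 0.397% and 0.135%. In Control mice the share of Cyp2e1 ran from 0.139% to 0.917%, and in EtOH mice from 0.0455% to 0.209%. These shares are of RNA, and the amount and activity of the enzymes were not measured in these libraries.

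**Figure D2:**
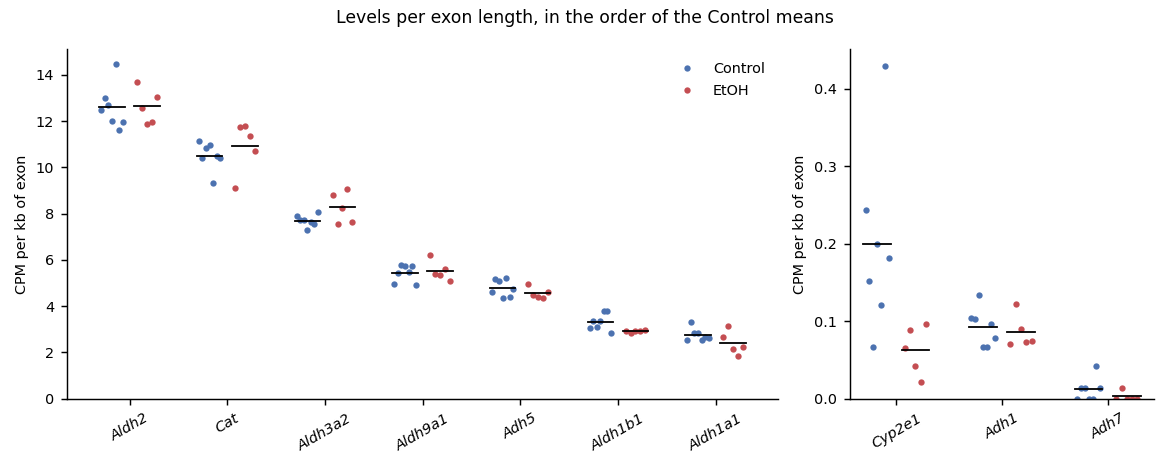
Level per exon length (CPM per kilobase of exon) of the 10 genes, ordered by the Control mean, with Control mice in blue, EtOH mice in red and a line at each group's mean; the right panel has its own smaller axis. Aldh2, Cat and Aldh3a2 lead in both groups, and Cyp2e1, Adh1 and Adh7 lie below 0.5 CPM per kilobase in every mouse.

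The alcohol dehydrogenase genes lie in 1 cluster on chromosome 3 of GRCm39, on the plus strand, with Adh7 from 137923521 to 137939938, Adh1 from 137966752 to 137996462 and Adh5 from 138148828 to 138161260. Adh1, the class I enzyme that oxidises most ethanol in the liver, was near the detection limit. Its counts ran from 7 to 14 in Control mice (median 10) and were 10, 13, 10, 8 and 8 in EtOH mice. The groups overlapped throughout. Its level was 0.305 ± 0.0801 CPM (SD, n = 7) in Control and 0.284 ± 0.0721 CPM (SD, n = 5) in EtOH mice, which gave a log2 fold change with its standard error of -0.10 ± 0.30 (95% interval -0.74 to 0.53, adjusted p = 0.834 by edgeR). The interval reaches past 0.5 in both directions, so a difference of that size was not detectable at this depth.

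Adh7, a class IV enzyme known for retinol and ethanol oxidation in the upper digestive tract, gave 0, 2, 2, 0, 0, 6 and 2 counts in the 7 Control mice and 0, 2, 0, 0 and 0 in the 5 EtOH mice. More than 3 counts were seen in 1 Control mouse. The sums were 12 and 2 counts, a ratio of EtOH to Control of 0.221 per unit of library size with an exact 95% interval of 0.024 to 0.993, which covers counting error only and treats each count as independent although every count above 0 was even. Without the filter the fitted log2 fold change was -1.88 with an adjusted p of 0.318 by edgeR over 23748 genes.

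Adh5, the class III enzyme and the main formaldehyde dehydrogenase of most tissues, was the one alcohol dehydrogenase of the set with a sizeable level. It ranged from 30.3 to 36.3 CPM in Control mice (median 33.0) and was 34.4, 31.2, 30.5, 30.1 and 31.9 CPM in EtOH mice. The EtOH values lay inside the Control range except for the lowest, which was just under it. The means were 33.3 ± 2.55 CPM (SD, n = 7) and 31.6 ± 1.68 CPM (SD, n = 5), which gave a log2 fold change with its standard error of -0.08 ± 0.06 (95% interval -0.21 to 0.06, adjusted p = 0.400 by edgeR).

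Cyp2e1 lies on chromosome 7 of GRCm39 from 140343652 to 140355167 on the plus strand, and no exon of another annotated gene overlaps it. A short stretch around the TATAAA motif near its start is shown because Cyp2e1 was the member called, beside the bases upstream of Adh5, a member at a much higher level, whose promoter differs in make-up. Both are written 5′ to 3′ on the plus strand of GRCm39, at chr7:140343689-140343718 for Cyp2e1 and chr3:138148604-138148827 for Adh5, where the stretch ends at the base before the annotated gene. Capitals mark the TATAAA motif in Cyp2e1 and CpG dinucleotides in Adh5.
Cyp2e1: tcaacgacacgtTATAAAatccttgtttct
Adh5: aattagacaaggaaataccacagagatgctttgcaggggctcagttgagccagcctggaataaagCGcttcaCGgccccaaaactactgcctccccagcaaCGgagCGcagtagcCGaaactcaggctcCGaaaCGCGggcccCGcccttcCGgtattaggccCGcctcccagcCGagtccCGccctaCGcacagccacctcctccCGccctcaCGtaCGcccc
The TATAAA of Cyp2e1 begins 31 bases before the RefSeq start site on the sense strand. The RefSeq start lies 80 bases inside the gene span of the annotation given above, so the motif also lies within that span. Over 32851 RefSeq promoter windows of 300 bases (250 before and 50 after the start, from the table built on GRCm38.p6), 1.75% held TATAAA on the sense strand with its first base between 35 and 25 bases before the RefSeq start, and 13.6% held it anywhere on either strand. None of the other 10 windows of the members held it at that place, and Adh7 and the upstream window of Adh5 held it elsewhere. The whole window of Cyp2e1 had 4 CpG and a GC content of 49.7%, that of Adh5 26 CpG and 65%, and the medians over all windows were 7 CpG and 52.7%. A motif match describes the letters and is not evidence of binding. Windows were matched for 9 of the 10 members, and Aldh2 was not matched.

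CYP2E1 is the P450 that oxidises ethanol and releases reactive oxygen species as it works, and its RNA was scarce in both groups. Its counts in Control mice ran from 6 to 38 with a median of 16, and in EtOH mice they were 8, 8, 4, 2 and 9. In CPM, Control mice ran from 0.189 to 1.21 (median 0.513), and EtOH mice stood at 0.185, 0.249, 0.119, 0.0607 and 0.274. The values of 3 of 5 EtOH mice lay below all Control values, and the other two fell within the Control range, so the groups overlapped. The mean was 0.562 ± 0.328 CPM (SD, n = 7) in Control and 0.178 ± 0.0887 CPM (SD, n = 5) in EtOH mice. The fitted level in EtOH mice was 0.322 times that of Control mice, which gave a log2 fold change with its standard error of -1.64 ± 0.45 (95% interval -2.58 to -0.69, adjusted p = 0.0143 by edgeR over 16059 genes).

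Few counts carry the Cyp2e1 difference. All EtOH mice together held 31 counts and all Control mice 128, a ratio of 0.321 per unit of library size with an exact 95% interval of 0.210 to 0.479 for counting error alone. This interval treats each count as independent and leaves out the spread between mice. The coefficient of variation was 58.3% in Control mice where counting gives 23.4%, and 49.9% in EtOH mice where counting gives 40.2%. The count was even in 11 of 12 mice. With each count halved and rounded, as if both reads of a pair had been counted, the sums were 16 and 64 and the ratio 0.332 (0.179 to 0.581). Every EtOH mouse had under 10 counts, so the gene passed the filter through its Control values, and without a filter beyond 1 count in any mouse its log2 fold change was -1.63 (adjusted p = 0.0152 by edgeR). Control 6, the highest mouse, also had the highest sum of red blood cell markers (128 CPM, against 9.19 to 21.0 CPM in the other Control mice and 9.74 to 74.1 CPM in EtOH mice), and without it the log2 fold change was -1.33 (adjusted p = 0.0258 by edgeR). Without EtOH 1, EtOH 3 and EtOH 4, the libraries high in choroid plexus markers, it was -1.09 with an adjusted p of 0.300 by edgeR, with EtOH 2 and EtOH 5 left in the group. These 3 mice were also those below all Control values of Cyp2e1. A smaller difference without them was therefore fixed in advance, and the part of the choroid plexus was not tested.

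The groups differed in the same direction in striatal neuron markers (10 of 10 called lower, none of them at 0 in any mouse), and inhibitory neuron, oligodendrocyte and microglia markers also had lower sums in EtOH mice. Inhibitory neuron markers summed to between 909 and 1237 CPM in Control and between 768 and 822 CPM in EtOH mice, with 2 of 6 called lower. Oligodendrocyte markers summed to between 4285 and 5703 CPM in Control and between 2872 and 5139 CPM in EtOH mice, with 2 of 6 called lower. Microglia markers summed to between 293 and 320 CPM in Control and between 253 and 277 CPM in EtOH mice, with 0 of 6 called and 4 of 6 at an adjusted p under 0.05 alone. Astrocyte markers went the other way, with sums between 883 and 998 CPM in Control and between 1061 and 1180 CPM in EtOH mice and 1 of 6 called higher. The part of these markers in the Cyp2e1 difference was not tested. Among hepatocyte markers, which would mark the tissue where Cyp2e1 is most abundant, only Ttr, a gene that the choroid plexus also expresses, was high enough to be tested. Alb, Serpina1a and Cyp3a11 had 0 counts in all EtOH mice and at most 4 counts in a Control mouse, and Apoa1 had 0.0631 to 0.49 CPM in Control and 0.124 to 0.477 CPM in EtOH mice. The 3 genes whose log2 CPM followed Cyp2e1 most closely within groups over the 12 mice were 4930503L19Rik, Shcbp1l and Irag1, with Pearson's r of 0.91, 0.91 and 0.89 after subtraction of each group's mean, a ranking over 16059 genes given as a description.

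**Figure D3:**
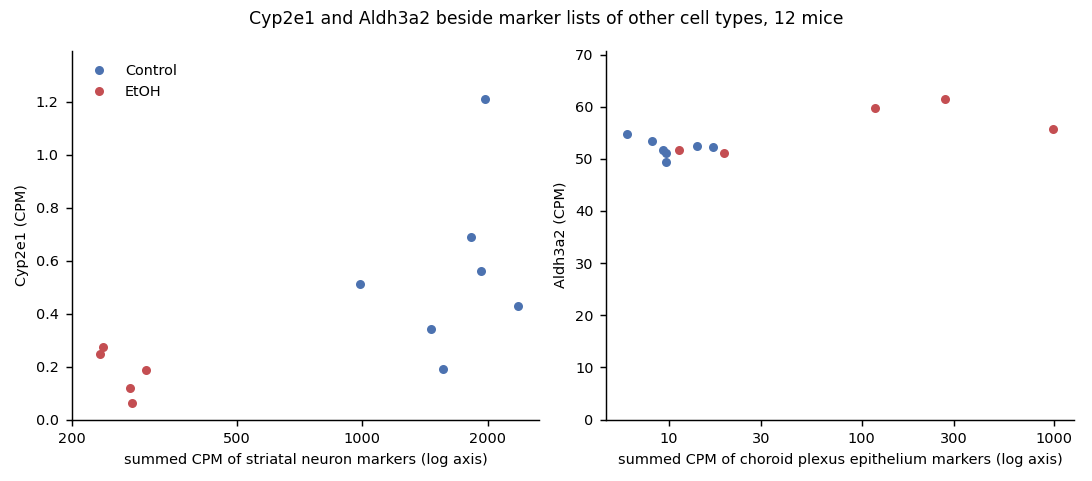
Cyp2e1 (left, CPM) against the summed CPM of 10 striatal neuron markers, and Aldh3a2 (right, CPM) against the summed CPM of 6 choroid plexus markers, each point 1 mouse, Control in blue and EtOH in red, with log horizontal axes. The groups are apart on the striatal axis with no overlap, and the 3 EtOH mice above 100 CPM of choroid plexus markers have the 3 highest Aldh3a2 values.

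Catalase, which oxidises ethanol with hydrogen peroxide and is the member linked most often to acetaldehyde formation in brain, lies on chromosome 2 from 103284194 to 103316185 on the minus strand with no overlapping exon. It ranged from 34.2 to 40.9 CPM in Control mice (median 38.5) and was 33.4, 43.1, 43.3, 41.8 and 39.3 CPM in EtOH mice. Of the EtOH mice, 3 lay above all Control mice and 1, EtOH 1, lay below them all. The means were 38.6 ± 2.22 CPM (SD, n = 7) and 40.2 ± 4.10 CPM (SD, n = 5), which gave a log2 fold change with its standard error of 0.06 ± 0.07 (95% interval -0.09 to 0.20, adjusted p = 0.570 by edgeR). The lowest value of each group came from its deepest library, Control 5 and EtOH 1. Without these libraries the log2 fold change was 0.10 (adjusted p = 0.204 by edgeR).

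Aldh2 encodes the mitochondrial enzyme that clears acetaldehyde and lies on chromosome 5 from 121704090 to 121732089 on the minus strand. Its level was the highest of the set per length. In Control mice it ranged from 70.6 to 88.0 CPM (median 75.9), and EtOH mice had 83.3, 76.3, 72.3, 72.8 and 79.4 CPM. All EtOH values lay inside the Control range. The means were 76.6 ± 5.77 CPM (SD, n = 7) and 76.8 ± 4.62 CPM (SD, n = 5). The log2 fold change with its standard error was 0.0041 ± 0.06 (adjusted p = 0.969 by edgeR), and its 95% interval of -0.12 to 0.13 leaves out the minimum of 0.5 set for a call in either direction. In contrast to Cat, the highest Aldh2 value of each group came from its deepest library.

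Aldh1b1, a second mitochondrial enzyme that accepts acetaldehyde, lies on chromosome 4 from 45798886 to 45804604 on the plus strand with no overlapping exon. It ranged from 6.93 to 9.25 CPM in Control mice (median 8.15) and was 7.14, 6.94, 7.16, 7.10 and 7.24 CPM in EtOH mice. The EtOH values all lay at the low end of the Control range. The means were 8.09 ± 0.898 CPM (SD, n = 7) and 7.11 ± 0.11 CPM (SD, n = 5), which gave a log2 fold change with its standard error of -0.19 ± 0.09 (95% interval -0.38 to 0.0017, adjusted p = 0.140 by edgeR). The EtOH mice were closer to each other than counting alone gives on average, with a coefficient of variation of 1.54% where a mean of 249 counts gives 6.34%, while Control mice varied by 11.1% where counting gives 6.09%. The difference in spread was not tested.

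Aldh1a1 encodes a cytosolic enzyme that makes retinoic acid from retinal and also oxidises acetaldehyde, and it lies on chromosome 19 from 20469539 to 20622825 on the plus strand. It ranged from 27.0 to 35.7 CPM in Control mice (median 28.7) and was 28.8, 33.9, 22.9, 19.8 and 24.0 CPM in EtOH mice. EtOH 3, EtOH 4 and EtOH 5 lay below all Control mice, whereas EtOH 1 and EtOH 2 lay within their range. The means were 29.7 ± 3.01 CPM (SD, n = 7) and 25.9 ± 5.56 CPM (SD, n = 5), which gave a log2 fold change with its standard error of -0.20 ± 0.11 (95% interval -0.43 to 0.03, adjusted p = 0.201 by edgeR). EtOH 2, with the highest Aldh1a1 level of its group, also had the highest sum of oligodendrocyte markers in it (5139 CPM, against 2872 to 3576 CPM in the others), and the part of these cells was not tested. Without EtOH 2 the log2 fold change was -0.32 with an adjusted p of 0.0251 by edgeR, under the fold minimum for a call. Without EtOH 1, EtOH 3 and EtOH 4 it was -0.04 with an adjusted p of 0.875 by edgeR. That fit leaves out EtOH 3 and EtOH 4, which lay below all Control mice.

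Aldh3a2, the fatty aldehyde dehydrogenase of the endoplasmic reticulum, lies on chromosome 11 from 61114243 to 61158841 on the minus strand. It was the steadiest member in Control mice, from 49.5 to 54.7 CPM (median 52.3), and stood at 59.8, 51.2, 55.8, 61.5 and 51.7 CPM in EtOH mice. EtOH 1, EtOH 3 and EtOH 4 lay above all Control mice, and EtOH 2 and EtOH 5 lay among them. The means were 52.1 ± 1.68 CPM (SD, n = 7) and 56.0 ± 4.64 CPM (SD, n = 5), which gave a log2 fold change with its standard error of 0.10 ± 0.06 (95% interval -0.01 to 0.22, adjusted p = 0.189 by edgeR). The same 3 EtOH mice were those with 118, 980 and 270 CPM of choroid plexus markers, of which 4 of the 5 tested were called higher. Without them the log2 fold change was -0.03 with an adjusted p of 0.868 by edgeR. That fit leaves out the 3 highest Aldh3a2 values, so a smaller difference was fixed in advance and says nothing on its cause. Among these 3 mice, EtOH 3 had the highest marker sum (980 CPM) and the lowest Aldh3a2 level (55.8 CPM). The part of the choroid plexus in the Aldh3a2 values was not tested.

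Aldh9a1, which oxidises aldehydes of amines and of the carnitine pathway, lies on chromosome 1 from 167177536 to 167196101 on the plus strand. It ranged from 24.8 to 29.1 CPM in Control mice (median 27.5) and was 31.2, 27.0, 26.9, 28.2 and 25.6 CPM in EtOH mice. Only EtOH 1 lay outside the Control range. The means were 27.3 ± 1.80 CPM (SD, n = 7) and 27.8 ± 2.11 CPM (SD, n = 5), which gave a log2 fold change with its standard error of 0.02 ± 0.06 (95% interval -0.11 to 0.16, adjusted p = 0.813 by edgeR). For the 7 members with more than 200 counts in every mouse, each 95% interval lay within 0.5 of no difference on the log2 scale. Exons of Adh1, Adh5, Adh7, Aldh2, Aldh1a1, Aldh3a2 and Aldh9a1 overlap those of an annotated gene on the opposite strand, and the strand setting of the counting is not given in the sources used here.

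Around these enzymes, 79 further genes of ethanol and aldehyde metabolism were listed. Of the 61 that could be tested, 0 were called higher and 4 lower, 6.56%, against 8.29% of all genes tested, and their median log2 fold change was -0.02. With 1 mouse left out the count of 4 went down to 2 where that mouse was Control 3, 4 or 7 or EtOH 3 or 4, and it was 2 also without EtOH 1, 3 and 4 together. At an unadjusted p under 0.05 in edgeR 4 were higher and 13 lower, and DESeq2 and limma voom each called 0 higher and 3 lower. At an adjusted p under 0.05 alone 8 of 61 passed, against 23.7% of all genes. Among the other alcohol dehydrogenases, Adh4, Adh6a and Adh6b had at most 2 counts in any mouse, and Adhfe1, a mitochondrial hydroxyacid-oxoacid transhydrogenase, had 14.1 ± 0.926 CPM (SD, n = 7) in Control and 14.1 ± 1.19 CPM (SD, n = 5) in EtOH mice.

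Of the 14 other aldehyde dehydrogenases tested, 2 were lower and 0 higher, beside 8.29% of all genes called. Aldh1a7, a close copy of Aldh1a1 that lies next to it on chromosome 19 from 20667107 to 20704932, ran from 0.638 to 1.91 CPM in Control and from 0.182 to 0.373 CPM in EtOH mice. The groups did not overlap. The log2 fold change of Aldh1a7 with its standard error was -2.14 ± 0.31 (adjusted p = 7.99e-05 by edgeR), and it was called with any 1 mouse left out. Its EtOH mice held few counts, so it passed the filter mainly through its Control values and could not be tested with at least 10 counts in every mouse. How reads shared by Aldh1a1 and Aldh1a7 were counted is not given in the sources used here, so the split between these copies is uncertain. Aldh1a3 fell from 1.35 ± 0.305 CPM (SD, n = 7) to 0.814 ± 0.215 CPM (SD, n = 5), which gave a log2 fold change with its standard error of -0.72 ± 0.23 (adjusted p = 0.0296 by edgeR), with overlapping groups. Aldh1a3 was called in 5 of 12 fits with 1 mouse left out, and was not called without Control 1, 3, 4 or 7 or EtOH 3, 4 or 5, where its log2 fold change ran from -0.71 to -0.62 and its adjusted p by edgeR from 0.0521 to 0.076. Without the EtOH libraries high in choroid plexus markers (EtOH 1, 3 and 4) it was not called either, at -0.84 with an adjusted p of 0.136 by edgeR. The striatal markers (10 of 10 called lower) and the inhibitory neuron markers (2 of 6) given above were lower in the same mice, as were 2 of 5 midbrain dopamine neuron markers, Th (mean 8.52 CPM in Control and 1.43 CPM in EtOH mice) and Slc6a3 (0.436 and 0.115 CPM), while Nr4a2 of that list was higher, and their part in the Aldh1a7 and Aldh1a3 differences was not tested.

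The other 12 of these genes were not called. Aldh5a1, which oxidises succinic semialdehyde in GABA breakdown, had the highest level of them by counts, 73.6 ± 4.26 CPM (SD, n = 7) in Control and 78.8 ± 5.84 CPM (SD, n = 5) in EtOH mice, at a log2 fold change of 0.10 with an adjusted p of 0.221 by edgeR. The log2 fold changes were 0.12 for Aldh6a1 of valine breakdown, 0.07 for Aldh7a1 of lysine breakdown, -0.04 for the folate enzyme Aldh1l1 and 0.26 for its mitochondrial counterpart Aldh1l2. They were -0.01 for Aldh4a1 and -0.02 for Aldh18a1, both of proline metabolism, and 0.15 for Aldh16a1. The retinal dehydrogenase Aldh1a2 stood at 0.03 with a wide spread in EtOH mice (3.05 to 8.88 CPM), and Aldh3a1, Aldh3b1 and Aldh3b2 stood at 0.43, -0.04 and -0.52, none of them past the test. Without EtOH 5, Aldh3b2 was called lower, at -0.72 with an adjusted p of 0.0327 by edgeR.

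**Figure D4:**
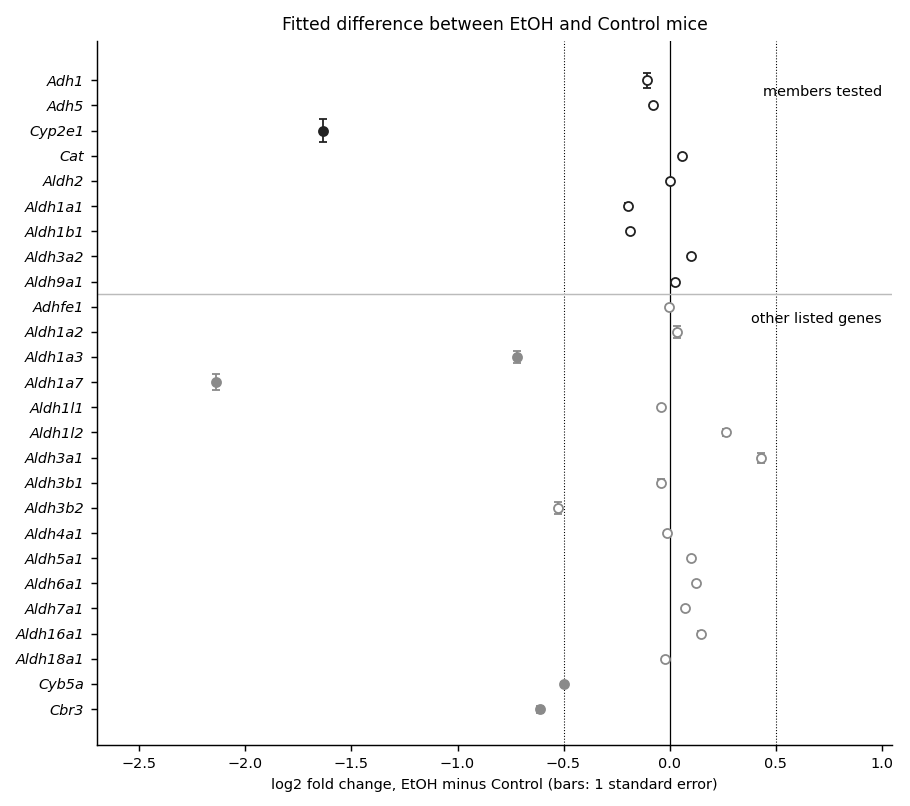
Fitted log2 fold change (EtOH minus Control) of the 9 members tested, in black, and of the other alcohol and aldehyde dehydrogenases and called pathway genes, in grey, with bars of 1 standard error that are hidden by the point where short, filled points for genes called and dotted lines at 0.5 in either direction. Cyp2e1 at -1.64 and Aldh1a7 at -2.14 lie far to the left, while the other 8 members lie between -0.20 and 0.10.

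CYP2E1 takes its electrons from NADPH through P450 reductase (Por), with help from cytochrome b5 (Cyb5a). Cyb5a was lower in EtOH mice, with 35.1 to 47.5 CPM in Control and 27.5 to 31.8 CPM in EtOH mice and no overlap. Its log2 fold change with its standard error, -0.50 ± 0.07 (adjusted p = 4.79e-05 by edgeR), lay at the fold minimum. It fell short of this minimum in 7 of 12 fits with 1 mouse left out (without Control 2, 3, 4 or 7 or EtOH 1, 3 or 4) and in 8 of 10 other alternatives, where the log2 fold change ran up to -0.44, while its adjusted p stayed at or under 0.0147 in each. Por itself was not called, with a log2 fold change of -0.17 and an adjusted p of 0.0518 by edgeR, with 78.1 to 89.2 CPM in Control and 60.5 to 77.9 CPM in EtOH mice and no overlap between groups. The outer mitochondrial form Cyb5b had the highest counts of this list and stood at -0.09 (adjusted p = 0.116 by edgeR), and 1 of 6 genes tested on the list, Cyb5a, was called, beside 8.29% of all genes tested. Of the markers given above, the striatal sums were lower in EtOH mice and the hippocampal sums were higher. The choroid plexus sums were far above those of Control mice in EtOH 1, EtOH 3 and EtOH 4 only. The part of these markers in the Cyb5a and Por differences was not tested.

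The reductases that turn aldehydes and ketones into alcohols had 1 of 9 genes called, beside 8.29% of all genes tested. Carbonyl reductase Cbr3 fell from 7.84 ± 1.32 CPM (SD, n = 7) to 5.11 ± 1.03 CPM (SD, n = 5), which gave a log2 fold change with its standard error of -0.61 ± 0.14 (adjusted p = 0.00395 by edgeR), with overlapping groups. Between the same groups, striatal and inhibitory neuron marker sums were lower in EtOH mice, and hippocampal and astrocyte marker sums were higher. Their part in the Cbr3 difference was not tested. Akr1a1, the aldehyde reductase with the highest counts of the list, stood at -0.08 (adjusted p = 0.285 by edgeR). Neither the peroxide sources and peroxisomal import factors that catalase depends on (10 tested), nor the retinol and retinoic acid enzymes (8 tested), the makers of amine, carnitine and fatty aldehydes (10 tested) or the genes of non-oxidative ethanol products (3 tested) held a gene called by edgeR, DESeq2 or limma voom. At an unadjusted p under 0.05 in edgeR these 4 lists held 2, 2, 4 and 0 genes. Rdh11, Far1 and Pld2, the leading genes by counts of the last 3 of these lists, had log2 fold changes of -0.01, -0.03 and 0.12. The genes that passed an adjusted p under 0.05 without the fold minimum, named after their values had been seen, were Esd (-0.31), which completes formaldehyde oxidation after ADH5, Sod1 (-0.20), Maob (-0.21) and Rdh13 (0.25).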

How the data were processed

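RNA of the cortex of 12 mice was sequenced by BGI. The authors checked reads with FastQC 0.11.9, used STAR for alignment to GRCm39 (Gencode M28 annotation) and featureCounts for counting, and deposited expected counts per gene symbol, not normalized, of which 61 symbols hold values that are not whole. Settings for strand, read pairs and multi-mapping are not given in the sources used here. All columns were matched to mice by name. Counts were rounded, filtered with filterByExpr, scaled by TMM and compared by the quasi-likelihood test of edgeR, with p adjusted by Benjamini-Hochberg over all 16059 genes tested (R 4.3.3, edgeR 4.0.16, limma 3.58.1), without covariates. Standard errors are the log2 fold change over the square root of F. Alternatives were DESeq2 1.42.0, limma voom, other scalings, filters and fold minimums, the replicate number as a block, and mice left out, and the fits were tested on simulated data. Lengths and positions are from Gencode M39. Named genes are all members, called genes of the pathway lists, the gene of highest mean count on each list and every tested gene of the 2 lists of other alcohol and aldehyde dehydrogenases. A gene that this rule selects is not reported here. Members and lists were chosen with earlier results of these data known. Nothing in the labels says that mice of a group came from separate cages or litters, and the 31 pairs of libraries of the same group all differed by more than sampling noise, with a chi-square per degree of freedom of at least 7.76.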

Additional observations from a re-analysis of the deposited data

Results flagged for a closer look

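In each of 20 groups (10 genes in 2 groups), the mouse farthest from the others was examined on log2 CPM, and 2 stood apart, where chance gives about 1. For Adh7, EtOH 2 was the highest of its group at a log2 CPM of -3.04, next to -4.08, and this rests on 2 counts where the other EtOH mice had 0. For Cat, Control 5 was the lowest of its group at a log2 CPM of 5.10, next to 5.26. Control 5 was the deepest Control library, and EtOH 1, the deepest EtOH library, had the lowest Cat level of its group.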

How the results depend on the processing

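Of the refitted log2 fold changes of members, 177 kept their direction and their call or lack of one, 13 changed sign and 2 lost the call. Among the 177, Aldh1a1 without EtOH 2 reached an adjusted p of 0.0251 while short of the fold minimum. Cyp2e1 was negative in 21 of 21 alternatives and called in 19, with log2 fold changes from -1.83 to -1.09 and adjusted p from 0.00449 to 0.300. With the replicate number as a block it was -1.29 (adjusted p = 0.0617 by edgeR) and 0 members were called. With EtOH 1, 3 and 4 left out it was -1.09 (adjusted p = 0.300 by edgeR) and 0 were called. These mice had the 3 lowest Cyp2e1 values, so a smaller difference without them was fixed in advance. With at least 10 counts in every mouse Cyp2e1 could not be tested and 0 members were called. Same-numbered mice did not deviate together (correlations from -0.11 to 0.02), so the numbers do not pair them, and the block gave 1324 genes in all. Values near 0 changed sign: Adh1 to 0.082 and Aldh3a2 to -0.025 without EtOH 1, 3 and 4; Aldh2 to -0.0011 under upper quartile factors and -0.032 with the replicate block; Aldh9a1 to -0.014 without the 2 deepest libraries and -0.061 without EtOH 1, 3 and 4. With each mouse left out in turn, Aldh2 ran from -0.023 to 0.033, Aldh9a1 from -0.017 to 0.051 and pathway genes called from 2 to 4. Over all genes, 3810 (1947 higher, 1863 lower) were called with no minimum fold, 524 (242 higher, 282 lower) with a minimum of 1, and 863 (397 higher) without EtOH 1, 3 and 4. Pathway genes called were 2 with at least 10 counts in every mouse, 8 with no minimum fold, 1 with a minimum of 1 and 2 without EtOH 1, 3 and 4. The longest transcript as length kept 6 of 10 places. Leaving out the deepest libraries or those high in choroid plexus markers, and halving counts, were chosen after seeing the data. Depth limits Adh1, Adh7 and Cyp2e1, with under 40 counts in every mouse.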

Other observations

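Cyp1a2, another P450 able to oxidise ethanol, was singled out after its values had been seen. It had at most 10 counts in any Control mouse and 0 counts in all 5 EtOH mice, too few for the filter. With the filter lowered to 1 count in any mouse, edgeR called it lower (adjusted p = 0.00956 over 23748 genes), and since the gene was picked for these same counts this adds no support to them. Control mice ran from 0 to 0.319 CPM, and EtOH mice lay under their floors of 0.0695 to 0.0933 CPM.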
